A study of Mus musculus with 13 samples.

Results

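The Spns1 knockout comparison set newly made kidney RNA of 4 libraries labelled Spns1 KO against that of 5 libraries labelled WT, and took in every expressed gene. Its members were the 16468 genes, of 35013 in the deposited count table, that passed edgeR's filter on low counts. The whole series held 13 libraries, and the other 4, labelled FeO for iron overload, entered the same fit and served to test which differences were particular to the knockout. Every mouse carried the tamoxifen-inducible Megalin3'Cre-Ert and 1 floxed Uprt allele (Uprt flox/+), to which Spns1 KO mice added Spns1 flox/flox, whereas WT and FeO mice were Spns1 flox/+ and thus had 1 floxed Spns1 allele, although the labels call that genotype Spns1 WT. All groups were littermates given tamoxifen to activate the Cre, which had been placed behind the last codon of megalin so that the receptor was kept. On sex, the study's methods state in general that female C57Bl6 mice were used and that males and females responded equally. FeO mice had also been injected with 12 mg of elemental iron, given as iron sucrose, on each of 3 days and were killed 1 week after that. The age of the mice was not given in the sources used here. Only cells with an active megalin Cre were meant to make uracil phosphoribosyltransferase (UPRT), an enzyme that lets injected 4-thiouracil enter new RNA, which was then biotinylated, captured on streptavidin, selected for poly-A tails and sequenced.

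Spns1 is a transporter of the lysosomal membrane, studied here for a part in iron handling, that is known to export lysophospholipids, the single-chain lipids left when lysosomal phospholipases digest membranes. Proximal tubule cells take up filtered protein through megalin and cubilin and deliver it to lysosomes, where cathepsins, glycosidases and lipases break it down. The same cells recover phosphate, glucose, amino acids and organic anions through apical and basolateral transporters, and burn fatty acids in abundant mitochondria.

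Total counts ranged from 31809135 to 71296474 in Spns1 KO, from 23068023 to 37362311 in WT and from 25986133 to 29981814 in FeO. The mean log2 total was 0.58 higher in Spns1 KO than in WT (exact two-sided permutation test over 4 against 5 libraries, p = 0.0476, 0.0952 adjusted over 4 measures, where the design allows no p below 0.00794). Of the Spns1 KO libraries, Spns1 KO 4 stood apart, with a median absolute log2 ratio of 0.414 to 0.504 against the other three libraries, which differed among themselves by 0.168 to 0.192. WT 1 and WT 2 were closer to each other than any other pair, at 0.0898, yet their counts differed by more than counting noise (chi-square of 9.28 per degree of freedom over 13388 genes). They were kept as separate samples. Nothing in the labels says that each library came from a separate animal, so the p-values measure the spread between these libraries. In bulk RNA of this kind, fewer cells of a type and less RNA per cell cannot be told apart. Summed levels of the 10 proximal tubule markers (CPM, the count scaled to the TMM-adjusted library total) were 6933 to 7891 in Spns1 KO and 3489.8 to 4979 in WT. Markers of other cells were present too. The 5 loop of Henle markers summed to 2222 to 3047 in Spns1 KO and 1341 to 2809 in WT, the 11 macrophage and antigen-presenting cell markers to 244 to 308 against 105 to 150.1 with no overlap, and the 5 erythroid markers to 51.8 to 175 against 9.4 to 36.5 with no overlap.

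Spns1 itself was measured over all its exons, whereas the Cre removes a single one. The loxP sites flank exon 3 (GRCm38, chr7:126375067-126375203, minus strand, 137 bases, which is not a multiple of 3), shown here because it is the stretch that the knockout removes and that a count over the whole gene does not isolate. Its sequence from the GENCODE M21 transcript reads 5′ to 3′ on the strand of the gene, with no base in capitals.
Spns1 exon 3: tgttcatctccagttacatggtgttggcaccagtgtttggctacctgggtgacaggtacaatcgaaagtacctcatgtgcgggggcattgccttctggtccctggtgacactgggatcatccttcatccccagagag
Spns1 was at 39.04, 44.5, 36.6 and 58.95 CPM in Spns1 KO 1 to 4 and at 57.2, 61.4, 57.6, 39.2 and 62.9 CPM in WT 1 to 5. Spns1 KO 4 was within the range of WT, and WT 4 was within the range of Spns1 KO, so the groups overlapped. The whole-gene level was not called different (log2 fold change -0.31 ± 0.18, edgeR adjusted p = 0.225, where ± gives the SE here and below), and the mean log2 CPM differed by -0.32 (exact two-sided permutation test, p = 0.135, 0.135 adjusted over the same 4 measures). Once the trend in transcript length and GC content was taken out, the log2 fold change was -0.52 and was called (edgeR adjusted p = 0.0267). With a term for the replicate number in that fit as well, it was -0.52 and was not called (edgeR adjusted p = 0.0953). Loss of exon 3 was not measured by these counts.

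**Figure D1:**
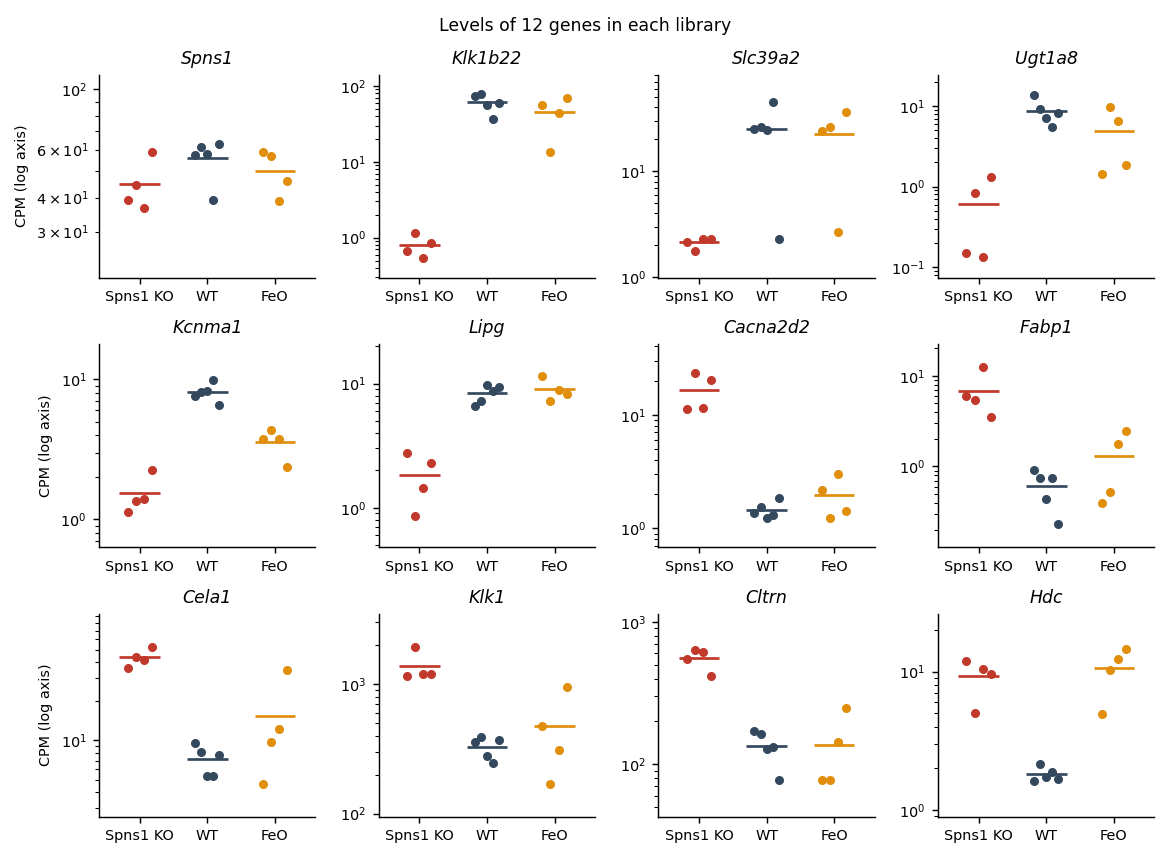
Levels of 12 genes in CPM on a log axis, with 1 point per library and a line at the mean of each group (4 Spns1 KO, 5 WT and 4 FeO libraries). Spns1 overlaps between groups, whereas Klk1b22 lies at 0.534 to 1.14 CPM in Spns1 KO and at 37.1 to 78.4 CPM in WT, and Slc39a2 is low in every Spns1 KO library but also in WT 5 and FeO 3.

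Across all tested genes, 2325 rose and 1252 fell in Spns1 KO against WT at an adjusted p under 0.05 and a log2 fold change beyond 0.5. These calls made up 14.1% and 7.60% of the genes tested and are the background for every count below. Every Spns1 KO library lay above every WT library for 13.1% of genes and below for 9.38%. Of the called genes, 1150 rose and 251 fell by more than 1 on the log2 scale. The down calls rested on single libraries more than the up calls did. Without Spns1 KO 3, 1528 genes rose and 495 fell, without Spns1 KO 1 the counts were 1611 and 516, without Spns1 KO 2 they were 1679 and 537, and without WT 3 they were 1761 and 569. Without Spns1 KO 4 they grew to 3006 and 2667, and without WT 1 or WT 2, the pair that lay so close, they were 2053 and 1070 or 1959 and 978.

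Genes with short transcripts rose more often than genes with long ones. With genes split into 5 bins of equal size by transcript length, 34.1% rose and 1.64% fell in the bin of shortest transcripts (81 to 1654 bases), and in that of the longest (4987 bases and more) 3.09% rose and 18.2% fell. The slope of a library's log2 CPM, taken against the WT mean, on the log2 of transcript length was -0.303 to -0.133 in Spns1 KO, -0.100 to 0.134 in WT and -0.366 to -0.265 in FeO, so the Spns1 KO and WT libraries did not overlap (exact two-sided permutation test of 4 against 5, p = 0.00794, the smallest the design allows, 0.0317 adjusted over 4 measures). After a trend in length and GC content was removed, 1768 genes rose and 793 fell, of which 1498 and 520 had also been called without that step. The part of the slope in each call was not tested further, and counts with the trend removed stand beside many of the gene groups below.

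**Figure D2:**
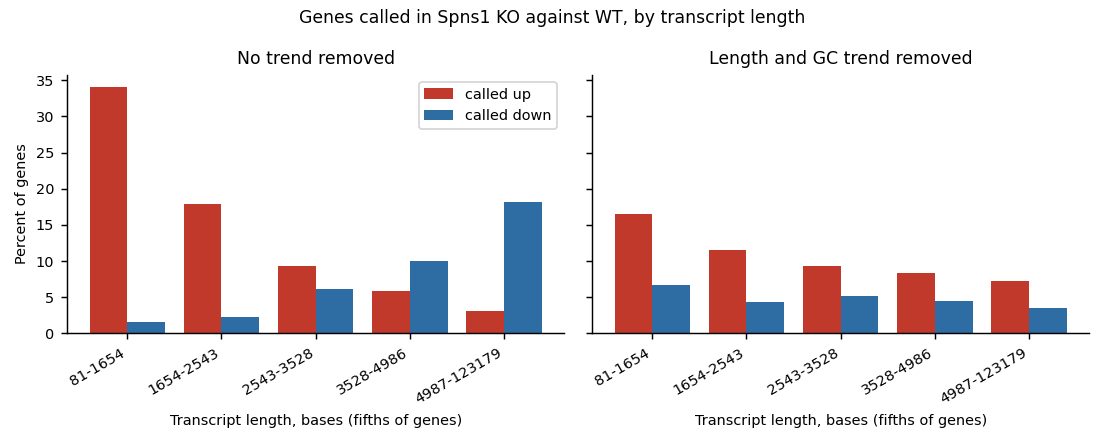
Percent of genes called up (red) and down (blue) in Spns1 KO against WT in 5 bins of genes by transcript length in bases, without (left) and with (right) the length and GC trend removed. On the left the up calls fall from 34.1% in the shortest bin to 3.09% in the longest, and on the right from 16.5% to 7.29%.

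The largest decrease among well-measured genes was that of Klk1b22, a serine protease of the glandular kallikrein family (chr7:44112673-44116922, plus strand, GRCm38). Klk1b22 was at 0.671, 1.14, 0.534 and 0.849 CPM in Spns1 KO and at 74.1, 78.4, 56.5, 37.1 and 60.1 CPM in WT, and FeO libraries were at 55.97, 13.5, 44.3 and 68.9 CPM. All Spns1 KO libraries lay far below all others (log2 fold change -6.26 ± 0.47, edgeR adjusted p = 2.09e-05). The difference from FeO was as large (log2 fold change -5.83 ± 0.47, edgeR adjusted p = 1.32e-05), while FeO and WT differed by -0.42 on the log2 scale. Klk1, the tissue kallikrein that releases kinins and the most abundant gene of that cluster here, went the other way, at 1142, 1936, 1189.5 and 1184 CPM in Spns1 KO and 354, 391, 276, 247 and 370.0 CPM in WT (log2 fold change 2.06 ± 0.37, edgeR adjusted p = 0.00138). Of the 11 kallikrein genes of the cluster that were tested, chosen after their values were seen, 2 rose, 1 fell and 8 were not called. Klk1b22 shares 41.1% of the 31-base words of its transcripts with other genes and Klk1 shares 40.5%, so their counts depend on how reads common to paralogs were assigned.

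Slc39a2, a zinc importer, was at 2.15, 1.79, 2.3 and 2.31 CPM in Spns1 KO and at 25.3, 26.3, 24.6, 45.4 and 2.32 CPM in WT. WT 5 was level with the knockouts and FeO 3, at 2.68 CPM, was just above them, and the other WT and FeO libraries were at least 24.2 CPM. The call held (log2 fold change -3.53 ± 0.81, edgeR adjusted p = 0.00959), with values that fell into a low and a high class rather than along a range. Kcnma1, the pore of the BK potassium channel, was at 1.13, 1.35, 1.4 and 2.26 CPM in Spns1 KO and at 7.6, 8.1, 8.28, 9.96 and 6.52 CPM in WT (log2 fold change -2.4 ± 0.25, edgeR adjusted p = 1.17e-04). It was lower in Spns1 KO than in FeO as well (log2 fold change -1.21 ± 0.26, edgeR adjusted p = 0.00816), and lower in FeO than in WT. Lipg, an endothelial lipase that cleaves phospholipids of lipoproteins, was at 2.77, 0.866, 1.44 and 2.29 CPM against 6.64, 7.27, 9.67, 8.69 and 9.42 CPM (log2 fold change -2.16 ± 0.29, edgeR adjusted p = 3.07e-04). Dio2, the deiodinase that activates thyroid hormone, was at 1.46, 1.08, 2.47 and 3.3 CPM against 13.7, 14.3, 7.4, 8.09 and 18.9 CPM (log2 fold change -2.59 ± 0.50, edgeR adjusted p = 0.00246). Catspere2 (log2 fold change -1.86), Tent5b (-1.74) and Kif23 (-1.73), a kinesin of cytokinesis, completed the 12 largest decreases with Slc7a11 and genes of the Ugt1a locus. That ranking left out genes whose groups overlapped, such as Cdkn1a (-1.98) and Peg10 (-1.82).

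The Ugt1a locus on chromosome 1 makes UDP-glucuronosyltransferases, which conjugate lipophilic compounds, from separate first exons spliced to shared later ones. Its members moved in opposite directions. Ugt1a8 was at 0.149, 0.839, 0.134 and 1.32 CPM in Spns1 KO and 13.7, 9.3, 7.06, 5.51 and 8.11 CPM in WT (log2 fold change -3.84 ± 0.73, edgeR adjusted p = 0.00300), and Ugt1a5 (-2.38), Ugt1a6b (-2.23), Ugt1a9 (-1.66) and Ugt1a10 (-1.17) fell too. Ugt1a2 was at 395, 369, 453 and 321 CPM in Spns1 KO and 134, 130.0, 91.2, 112 and 129.8 CPM in WT, with no overlap (log2 fold change 1.69 ± 0.27, edgeR adjusted p = 6.27e-04), and Ugt1a7c also rose (log2 fold change 1.5 ± 0.35, edgeR adjusted p = 0.00763). Between 55.7% and 84.2% of the 31-base words of these 7 members occur in other genes, so the split of reads among these members rests on their first exons. Ugt1a2, Ugt1a7c, Ugt1a9, Ugt1a10 and Klk1 were named after their values were seen.

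Among the 12 largest increases, Cacna2d2, an auxiliary subunit of voltage-gated calcium channels, was at 11.2, 23.3, 11.5 and 20.2 CPM in Spns1 KO and at 1.36, 1.54, 1.23, 1.31 and 1.85 CPM in WT. The gene was raised against WT (log2 fold change 3.5 ± 0.30, edgeR adjusted p = 2.09e-05) and against FeO also (log2 fold change 3.07 ± 0.32, edgeR adjusted p = 1.01e-04). Fabp1, the liver-type fatty acid-binding protein that carries fatty acids in proximal tubule cytosol, was at 5.93, 5.44, 12.4 and 3.47 CPM against 0.926, 0.739, 0.441, 0.742 and 0.232 CPM (log2 fold change 3.44 ± 0.53, edgeR adjusted p = 6.27e-04). Its level was low in all libraries. Igf2, a fetal growth factor, was at 52.6, 38.2, 89.7 and 259.8 CPM in Spns1 KO, 1.36, 2.06, 5.07, 4.59 and 17.5 CPM in WT and 16.5, 27.1, 38.9 and 132 CPM in FeO. It spread widely inside each group, with Spns1 KO 4 the highest (log2 fold change 4.18 ± 0.94, edgeR adjusted p = 0.0101), and 61.9% of its words occur in other annotated genes. Cyp4a12a (log2 fold change 3.53), a fatty acid omega-hydroxylase of which 62.2% of words are shared with other genes, Defb29 (2.54), Hdc (2.36), the enzyme that makes histamine, Spink1 (2.48), a trypsin inhibitor, and Kap (2.32), the kidney androgen-regulated protein, rose in Spns1 KO. They rose in FeO against WT too, where their log2 fold changes were 4.53, 1.9, 2.55, 1.72 and 1.52, and none of these 5 was called in Spns1 KO against FeO. Cela1, a pancreatic-type elastase, was at 36.2, 43.9, 41.4 and 52.5 CPM in Spns1 KO and 9.53, 8.1, 5.29, 5.3 and 7.76 CPM in WT (log2 fold change 2.59 ± 0.42, edgeR adjusted p = 9.56e-04). Igha (2.91), the heavy chain of immunoglobulin A, Pvalb (2.71), a calcium buffer of the distal convoluted tubule, and Prxl2b (2.49) were the others.

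Transporters of the proximal tubule rose as a group. Of 55 tested transporters for solutes and drugs, 32 rose and 0 fell, or 58.2% against a background of 14.1%, and the median log2 fold change of the list was 0.84 against -0.05 over all genes. Their median transcript length, 2815 bases, was close to that of all genes, 3005 bases, and after removal of the length and GC trend 32 rose (27 of them the same genes) with a median of 0.85. Against FeO 17 rose and 1 fell, beside backgrounds of 6.81% and 8.05%. Slc22a8, the organic anion transporter OAT3, was at 478, 400.5, 410.2 and 373 CPM in Spns1 KO, 145, 142, 107, 124 and 121 CPM in WT and 38.5, 128, 161 and 224 CPM in FeO. All Spns1 KO libraries were above every other library, both against WT (log2 fold change 1.7 ± 0.32, edgeR adjusted p = 0.00209) and against FeO (log2 fold change 1.59 ± 0.35, edgeR adjusted p = 0.00926). Slc22a12, the urate transporter URAT1, was at 257, 287, 263 and 97.2 CPM against 68.9, 60.9, 64.3, 65.3 and 37.8 CPM in WT (log2 fold change 1.93 ± 0.29, edgeR adjusted p = 4.59e-04), with Spns1 KO 4 the lowest of the knockouts. Slc7a12, an amino acid transporter, was at 160.2, 107, 87.003 and 253 CPM against 44.4, 42.5, 54.6, 45.004 and 30.2 CPM (log2 fold change 1.81 ± 0.31, edgeR adjusted p = 0.00108), here with Spns1 KO 4 the highest. Slc22a13 (log2 fold change 1.08), Slco1a6 (1.41), Slc22a19 (1.82) and Slc34a3 (1.43), which carries phosphate, were also higher against both WT and FeO. Slc22a18 (1.45), Slc22a2 (1.36), Slc22a6 (1.24) and Slc22a7 (1.99) rose against WT but were not called against FeO. Without Spns1 KO 1 or Spns1 KO 3 the count of transporters that rose was 21.

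Slc34a1, the main sodium-phosphate cotransporter of the brush border, was at 3159, 3024, 2563 and 3298 CPM in Spns1 KO and 2136, 1868, 1459, 1276 and 1304 CPM in WT. The groups did not overlap, but the call was marginal (log2 fold change 0.90 ± 0.32, edgeR adjusted p = 0.0499) and was dropped in 9 of 13 refits with 1 library omitted each, with log2 fold changes from 0.85 to 1.03. FeO libraries were at 453, 1982, 1383 and 931 CPM and Spns1 KO was higher (log2 fold change 1.34 ± 0.34, edgeR adjusted p = 0.0175). Slc5a2, the glucose transporter SGLT2, behaved alike, with a log2 fold change of 1.28 that lost its call in 7 of 13 such fits (from 1.14 to 1.44) and a larger difference from FeO (log2 fold change 2.001 ± 0.42, edgeR adjusted p = 0.00865). The promoters of both Slc34a1 and Slc22a8 hold the letters GTTAAT, one arm of the palindrome bound by HNF1 factors, which are regulators of tubule genes. On either strand these letters occur in a RefSeq promoter (250 bases before to 50 after a start) of 8.24% of the 27025 genes that have one, in the promoters of 8 of the 44 transporters with a promoter in that table and in 8 of 34 proximal tubule factors and enzymes. Of the 8 transporters with the letters 6 rose, and of the 36 without them 20 rose. By contrast 3 of the 8 factors and enzymes with the letters rose and 18 of the 26 without. A match is a description of letters only. The sequences are shown because they belong to the 2 transporters described, with the matched letters in capitals (GRCm38.p6, chr19:8592932-8593231, plus strand, and chr13:55399398-55399697, plus strand).
Slc22a8 promoter: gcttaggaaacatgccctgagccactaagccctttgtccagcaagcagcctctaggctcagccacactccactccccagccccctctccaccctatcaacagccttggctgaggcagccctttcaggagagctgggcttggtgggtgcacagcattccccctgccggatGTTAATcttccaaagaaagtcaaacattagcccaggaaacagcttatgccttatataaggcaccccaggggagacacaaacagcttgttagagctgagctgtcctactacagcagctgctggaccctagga
Slc34a1 promoter: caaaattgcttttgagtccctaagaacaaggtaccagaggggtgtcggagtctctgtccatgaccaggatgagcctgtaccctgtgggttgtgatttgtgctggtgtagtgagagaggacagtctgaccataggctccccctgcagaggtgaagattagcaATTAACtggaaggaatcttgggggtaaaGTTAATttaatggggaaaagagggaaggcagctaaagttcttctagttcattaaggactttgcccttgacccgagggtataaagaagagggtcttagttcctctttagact

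**Figure D3:**
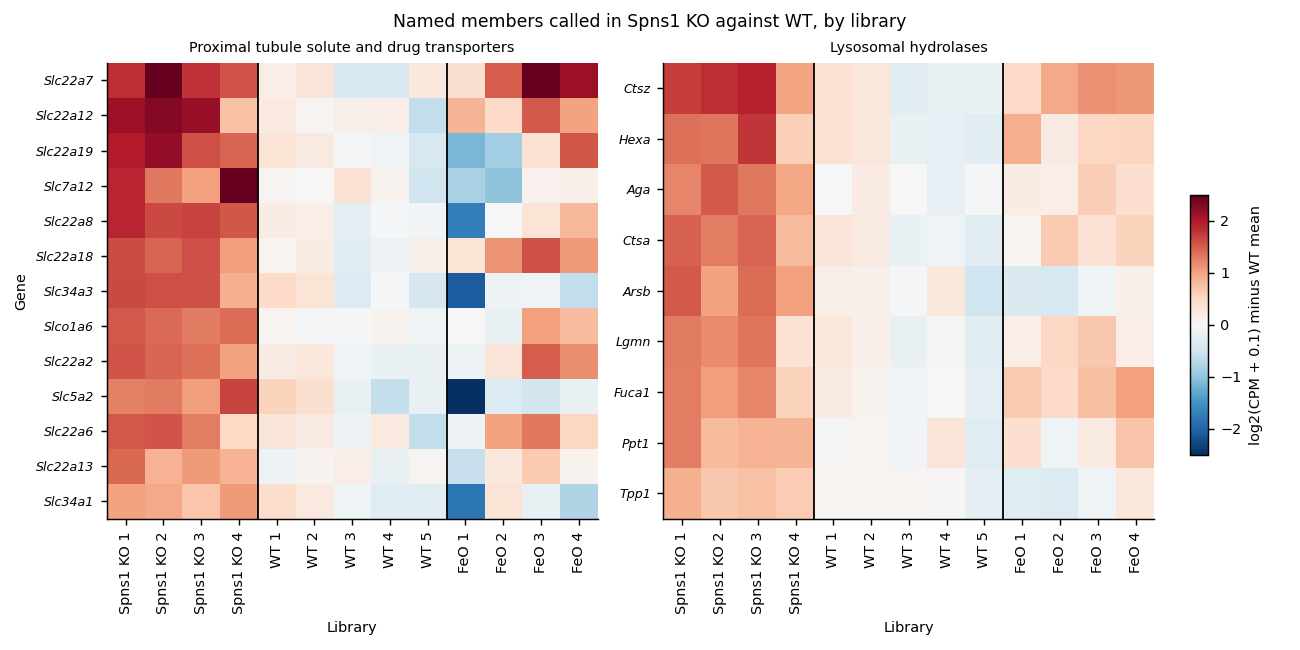
Members named in the text and called in Spns1 KO against WT among proximal tubule transporters (left, 13 genes) and lysosomal hydrolases (right, 9 genes), as log2(CPM + 0.1) minus the WT mean, with 1 column per library and lines between the groups. Red is above and blue below the WT mean. Spns1 KO 4 is the lowest of the Spns1 KO libraries for 9 of the transporters and 7 of the hydrolases, and FeO libraries are mixed among the transporters.

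Factors, peptidases and enzymes of the proximal tubule followed the transporters, with 24 of 45 up, 0 down and a median log2 fold change of 0.77, and 20 up with the trend removed. Against FeO 12 rose and 3 fell. Cyp2j5, an epoxygenase, was at 428, 334, 369.9 and 306 CPM in Spns1 KO and 104, 98.6, 87.5, 127 and 71.03 CPM in WT, with no overlap (log2 fold change 1.88 ± 0.30, edgeR adjusted p = 6.61e-04). Dpep1, a brush border dipeptidase, was at 55.5, 61.9, 55.6 and 46.7 CPM against 19.1, 22.2, 19.3, 22.7 and 19.5 CPM (log2 fold change 1.42 ± 0.23, edgeR adjusted p = 6.86e-04). Fbp1 of gluconeogenesis (log2 fold change 1.47), the angiotensin-converting enzyme Ace (1.16), the aminopeptidase Enpep (1.06) and Miox (1.7), which oxidizes inositol, rose against both WT and FeO. Ddc (1.59), which makes dopamine, and the meprin subunit Mep1b (1.4) rose against WT and were not called against FeO. Ace differed most from FeO among these (log2 fold change 1.6 ± 0.23, edgeR adjusted p = 0.00135). Without Spns1 KO 1 the count that rose was 14.

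The endocytic receptors of the brush border rose in part. Of 13 tested members 7 rose and 0 fell, with a median of 0.64, and the same 7 rose with the trend removed, at a median of 0.81. Cubn (cubilin) was at 357, 237, 297 and 379 CPM in Spns1 KO and 136, 141, 159, 229.9 and 119 CPM in WT, with no overlap (log2 fold change 1.02 ± 0.22, edgeR adjusted p = 0.00482), and it was higher than in FeO (log2 fold change 1.41 ± 0.24, edgeR adjusted p = 0.0032). Amn, the membrane anchor of cubilin, was at 43.8, 46.2, 44.4 and 21.02 CPM against 16.2, 16.3, 10.02, 9.04 and 8.96 CPM (log2 fold change 1.68 ± 0.29, edgeR adjusted p = 0.00106), and Lrpap1, the chaperone of megalin, was at 259.8, 247, 231 and 183 CPM against 133, 123, 111, 101 and 105 CPM (log2 fold change 1.005 ± 0.16, edgeR adjusted p = 6.63e-04). Lrp2 (megalin), the locus that carries the Cre in all groups, was at 747, 967, 1076 and 1387 CPM against 554, 548, 755, 669 and 578 CPM. Its ranges touched, since Spns1 KO 1 was below WT 3 (log2 fold change 0.75 ± 0.21, edgeR adjusted p = 0.0171, with the call lost in 1 of 13 fits without 1 library). The folate receptor Folr1 (log2 fold change 1.28) and the IgG and albumin receptor Fcgrt (1.14) rose against WT, and their log2 differences from FeO, 0.79 and 0.62, were not called. Dab2, the clathrin adaptor of megalin, had a log2 fold change of 0.64 whose call was lost in 7 of 13 such fits. The other 6 tested members, among them the chloride channel of endosomes and the transferrin receptor, were not called. Of 48 clathrin, endosome and retromer genes, 10 rose and 1 fell (20.8% up), and 5 rose with the trend removed, 6 without Spns1 KO 1, 5 without Spns1 KO 3 and 16 without Spns1 KO 4. Chmp2a (1.18) and Chmp3 (0.74), of the ESCRT machinery that sorts receptors into endosomes, kept their calls with the trend removed, and the clathrin light chain Clta (0.85) and the adaptor chain Ap2s1 (0.75) did not.

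Lysosomal hydrolases rose broadly. Of 52 tested, 30 rose and 0 fell, or 57.7%, with a median of 0.65. With the trend removed 25 rose, 22 of them the same genes, with a median of 0.59, and without Spns1 KO 1 the count was 19. The summed level of the list was 3943 to 6489.9 CPM in Spns1 KO, 2812 to 3742 CPM in WT and 3896 to 4957 CPM in FeO. Ctsz, a cathepsin, was at 71.7, 77.9, 81.7 and 42.6 CPM in Spns1 KO and 27.9, 26.2, 17.6, 18.9 and 19.2 CPM in WT (log2 fold change 1.64 ± 0.21, edgeR adjusted p = 2.76e-04). Ctsa, the protective protein that stabilizes beta-galactosidase and neuraminidase, was at 168, 148, 166 and 105 CPM against 76.04, 70.6, 53.9, 56.5 and 50.6 CPM (log2 fold change 1.25 ± 0.18, edgeR adjusted p = 4.11e-04). Arsb, a sulfatase for dermatan sulfate, was at 111, 76.9, 101 and 78.5 CPM, against 42.7, 42.1, 36.9, 46.1 and 27.2 CPM in WT and 29.7, 29.2, 35.4 and 41.9 CPM in FeO, so that the knockouts were above both groups (log2 fold change 1.24 ± 0.18, edgeR adjusted p = 4.04e-04 against WT and 1.43 on the log2 scale against FeO). The hexosaminidase chain Hexa (1.31), the asparagine-sugar amidase Aga (1.27), Lgmn (1.09), Ppt1 (0.95), Tpp1 (0.73) and the fucosidase Fuca1 (1.05) rose as well. Against FeO 13 hydrolases rose and 2 fell, or 25.0% up beside a background of 6.81%. Aga (0.91), Ctsa (0.84) and Tpp1 (0.82) were among the 13, while Fuca1 (0.32) was not called against FeO.

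Among 28 lysosomal membrane proteins 9 rose and 1 fell, and 5 rose without Spns1 KO 1 or Spns1 KO 3. Cd63, a tetraspanin, was at 349, 381, 396 and 246 CPM in Spns1 KO and 123, 111, 86.6, 75.9 and 101 CPM in WT (log2 fold change 1.79 ± 0.23, edgeR adjusted p = 2.76e-04), and Lamp1 was at 624, 529, 619 and 303 CPM against 265, 249.7, 218, 242 and 178 CPM (log2 fold change 1.17 ± 0.22, edgeR adjusted p = 0.00161). Npc2, which hands cholesterol to Npc1 inside the lysosome, rose (log2 fold change 0.90 ± 0.17, edgeR adjusted p = 0.00217), whereas Npc1 was lower, at 32.4, 35.4, 31.3 and 43.1 CPM against 52.1, 53.1, 60.95, 69.2 and 52.04 CPM with no overlap (log2 fold change -0.69 ± 0.14, edgeR adjusted p = 0.00315, and -0.47 without a call once the trend was removed). Slc17a5, the sialic acid exporter, was at 101, 92.9, 97.6 and 82.2 CPM against 59.8, 56.999, 62.4, 70.4 and 46.8 CPM (log2 fold change 0.66 ± 0.15, edgeR adjusted p = 0.00700) and was higher than in FeO (log2 fold change 0.92 ± 0.16, edgeR adjusted p = 0.00384). Of 22 V-ATPase subunits 9 rose, but 4 did with the trend removed or without Spns1 KO 3, and against FeO 0 rose and 4 fell. Atp6v0e2 (0.93) and the accessory subunit Atp6ap2 (0.79) kept their calls against WT with the trend removed, while Atp6v1f (1.01) and Atp6v0c (0.84) did not. TFEB family and autophagy genes gave 6 up and 5 down of 46, near the background in each direction (4 and 2 with the trend removed). The 5 down became 1 without Spns1 KO 1, 2 or 3 or WT 3 or 4, 2 without WT 1 or 2, and 3 without WT 5 or FeO 4. Gabarap (1.15), an ATG8 protein of autophagosomes, and Atg3 (0.70), which helps to attach it to lipid, rose and Atg13 (-0.54), of the initiating kinase complex, fell.

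The 8-letter palindrome TCACGTGA, a form of the CLEAR element that TFEB binds, was present in the RefSeq promoters of 1.12% of genes, in those of 4 of the 41 hydrolases with a promoter in the table (Ctsa, Ctsd, Dpp7 and Gla), 5 of 24 membrane proteins and 3 of 16 V-ATPase subunits. Of the 4 hydrolases with the letters 3 rose, and of the 37 without them 23 rose. For membrane proteins 1 of 5 with the letters rose and 7 of 19 without, and for V-ATPase subunits 0 of 3 and 8 of 13. The promoter of Ctsa (GRCm38.p6, chr2:164833523-164833822, plus strand) is shown because it holds the letters more than once beside its start, in capitals.
Ctsa promoter: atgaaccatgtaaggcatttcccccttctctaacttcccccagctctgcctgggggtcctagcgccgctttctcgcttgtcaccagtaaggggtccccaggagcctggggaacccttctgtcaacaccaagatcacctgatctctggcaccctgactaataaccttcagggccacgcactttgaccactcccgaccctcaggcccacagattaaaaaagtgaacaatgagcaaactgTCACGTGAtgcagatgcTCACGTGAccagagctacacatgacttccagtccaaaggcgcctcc

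The lipids that Spns1 exports are rebuilt into phospholipids by acyltransferases and by the choline and ethanolamine branches of the Kennedy pathway. Of 31 genes for that salvage 4 rose and 4 fell, with a median of -0.03, and the count that rose ran from 1 without WT 3 to 8 without Spns1 KO 4. Mboat2, a lysophospholipid acyltransferase, was at 16.3, 15.6, 16.8 and 15.1 CPM in Spns1 KO and 24.1, 24.1, 31.4, 46.7 and 27.1 CPM in WT, with no overlap (log2 fold change -0.95 ± 0.22, edgeR adjusted p = 0.00648), and was lower than in FeO (log2 fold change -0.87 ± 0.23, edgeR adjusted p = 0.0191). The call was not kept with the trend removed (-0.56). Spns3, a relative of Spns1, was at 1.79, 2.89, 1.44 and 4.01 CPM against 0.762, 1.05, 0.693, 0.777 and 0.888 CPM (log2 fold change 1.6 ± 0.40, edgeR adjusted p = 0.0105). Etnk1, the ethanolamine kinase, was at 756, 540.3, 707 and 729 CPM against 1049, 1222, 1195, 1410.3 and 942 CPM (log2 fold change -0.77 ± 0.21, edgeR adjusted p = 0.0178, with the call lost in 1 of 13 fits and, at -0.43, with the trend removed), and FeO was lower than WT by a similar amount (-0.77 on the log2 scale). Chka, the choline kinase, had Spns1 KO 4 at 295 CPM, just under the lowest WT library at 296 CPM, and a call that was lost in 4 of 13 fits (log2 fold change -0.83 ± 0.23, edgeR adjusted p = 0.0174).

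Enzymes of fatty acid oxidation rose in part, with 12 of 39 up and 1 down, a median of 0.62 and 9 up with the trend removed. Spns1 KO 4 weighed here, since 24 rose without it and 7 without Spns1 KO 3. Acadm, the medium-chain acyl-CoA dehydrogenase, was at 595, 719.6, 553 and 349.9 CPM in Spns1 KO and 249.9, 249, 249.7, 222 and 214 CPM in WT (log2 fold change 1.23 ± 0.22, edgeR adjusted p = 0.0012). The electron transfer flavoprotein chains Etfa (1.42) and Etfb (1.56) and Acads (1.03) rose too, and Etfb shares 49.9% of its words with other genes. None of the 12 was called up against FeO, but with the trend removed 3 genes of the list were, among them Acadm (0.64) and Etfa (0.69). Ppara, the receptor that drives this pathway, was at 144, 126, 132 and 272 CPM in Spns1 KO and 274, 273, 299, 320.1 and 131 CPM in WT and was not called, but it was higher than in FeO, which was at 15.1, 86.7, 37.1 and 23.1 CPM (log2 fold change 2.06 ± 0.47, edgeR adjusted p = 0.0118). Lipid droplet genes gave 2 up and 4 down of 26. Lpin1 (log2 fold change -1.22 ± 0.31, edgeR adjusted p = 0.0109) and Lpin2 (log2 fold change -0.77 ± 0.18, edgeR adjusted p = 0.00794), phosphatidate phosphatases on the way to triglyceride, and Plin4 (log2 fold change -1.5 ± 0.37, edgeR adjusted p = 0.0107), a droplet coat protein, fell, and Cideb (1.17) rose. Of 34 cholesterol genes 5 rose (2 without Spns1 KO 1, 2 or 3 and 3 without WT 1, 2 or 3) and 2 fell, among them Nr1h3 (1.09), the oxysterol receptor LXR-alpha, up and Fdft1 (-0.57), squalene synthase, down.

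Nuclear genes of the respiratory chain rose nearly throughout. Of 36 nuclear complex I subunits 34 rose (median 1.16) and of 40 subunits of complexes II to V 39 rose (median 1.23), with 0 down in either list. Their transcripts are short (median lengths of 939.5 and 809 bases), and with the trend removed 29 and 34 rose, with medians of 0.76 and 0.96. Uqcr11 was at 54.7, 67.1, 59.3 and 31.8 CPM in Spns1 KO and 14.8, 16.5, 12.001, 11.8 and 13.6 CPM in WT (log2 fold change 1.95 ± 0.24, edgeR adjusted p = 2.47e-04), and Cox5b was at 153, 193, 157 and 113 CPM against 53.1, 53.3, 38.1, 37.8 and 49.96 CPM (log2 fold change 1.73 ± 0.21, edgeR adjusted p = 2.76e-04). Cox8a (1.67) and Cox6a1 (1.56), other chains of cytochrome c oxidase, were alike. Ndufs6 (1.97) and Ndufa1 (2.25) rose as well. Most of the rise was shared with FeO, where the medians against WT were 1.02 in both lists, and 4 and 3 genes rose against FeO, among them Ndufb3 (1.72 against WT and 0.72 against FeO), Ndufa13 (1.63 and 0.98) and Ndufa6 (1.39 and 0.71). With the trend removed 5 and 9 rose against FeO, and 0 fell in either list. The 13 subunits encoded in mitochondrial DNA differed less, with 1 called up (mt-Co2, 0.95, lost in 7 of 13 fits and with the trend removed, and with 100% of its words in other genes) and a median of 0.48, and mitochondrial genes took 18.8% to 26.8% of counts in Spns1 KO and 11.8% to 21.6% in WT.

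Cytosolic ribosomal proteins gave 76 of 84 up, 0 down and a median of 1.34, or 71 up with a median of 0.89 when the trend was removed. Rps29 was at 82.4, 87.2, 86.5 and 49.7 CPM in Spns1 KO and 23.7, 26.3, 21.2, 20.8 and 20.8 CPM in WT (log2 fold change 1.76 ± 0.24, edgeR adjusted p = 3.07e-04). The FeO median was 1.11, and 3 of the 84 rose and 2 fell against FeO, or 13 and 2 with the trend removed. Mitochondrial ribosomal proteins gave 49 of 78 up, but 21 with the trend removed and 31, 29 and 27 without Spns1 KO 1, 2 and 3. Proteasome subunits gave 9 of 32 up, but 1 with the trend removed or without Spns1 KO 1, 2 or 3, 3 without WT 3, 5 without WT 4 and 17 without Spns1 KO 4, and 8 were lower than in FeO. Among 56 initiation factors 7 rose, or 2 with the trend removed or without Spns1 KO 1, 2 or 3 or WT 3, and 2 fell. Eif2ak3 (log2 fold change -0.78 ± 0.15, edgeR adjusted p = 0.00225) and Eif2ak4 (log2 fold change -0.85 ± 0.19, edgeR adjusted p = 0.00493), the kinases PERK and GCN2 that slow initiation under stress, were the 2 that fell. Of 34 enzymes of the TCA cycle and pyruvate use 15 rose and 2 fell (11 and 1 with the trend removed), with Sdha (1.2), Suclg2 (1.11) and Mdh2 (1.18) among them. The first 2 of these were higher than in FeO also (0.91 and 0.71), and against FeO the whole list gave 6 up and 2 down. Of 26 genes of glycolysis and gluconeogenesis 10 rose and 2 fell (7 and 1 with the trend removed), with Gapdh (1.17), Ldhb (1.01) and Tpi1 (1.08) up, and FeO differed from WT by 0.95, 0.89 and 1.42.

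**Figure D4:**
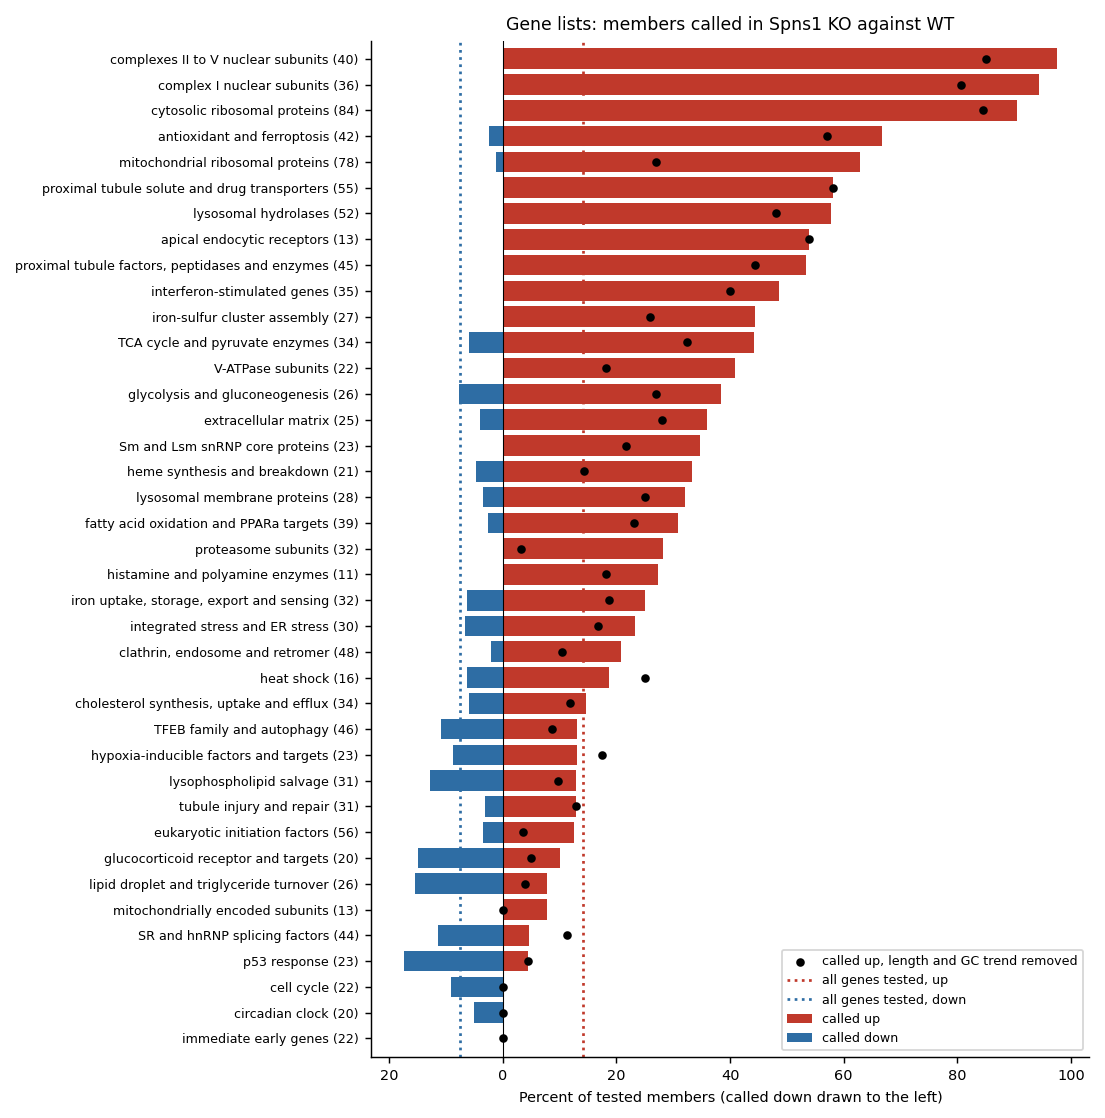
Percent of tested members of each gene list called up (red, to the right) or down (blue, to the left) in Spns1 KO against WT, with the number tested in parentheses. Dotted lines mark all genes tested, at 14.1% up and 7.60% down, and black dots show the percent up after that trend in length and GC content was taken out. The respiratory chain, ribosome, transporter and hydrolase lists lie far right of the upper line. Several lists reach left of the lower one, among them the p53, lipid droplet, glucocorticoid and lysophospholipid salvage lists. Each of these named lists has only 3 or 4 members down. Without 1 library these counts ran from 1 to 10, 3 to 5, 0 to 9 and 2 to 5 in that order.

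Iron genes were examined because the series set the knockout beside iron-loaded mice. Of 32 genes that take up, store, export or sense iron 8 rose and 2 fell (6 and 0 with the trend removed), and 5 rose without Spns1 KO 3, WT 2 or WT 3 and 13 without Spns1 KO 4. Ftl1, the ferritin light chain, was at 1815, 2300.4, 2534 and 949 CPM in Spns1 KO, 788, 712, 527, 585 and 677 CPM in WT and 1837, 1662, 1944 and 1336 CPM in FeO. Both Spns1 KO and FeO were above every WT library (log2 fold change 1.53 ± 0.25, edgeR adjusted p = 8.21e-04 for Spns1 KO), and Spns1 KO and FeO were not called different (log2 fold change 0.16 ± 0.27, edgeR adjusted p = 0.699). Ftl1 shares 57.7% of its words with other genes. Fth1, the heavy chain, was alike, at 1547, 2137, 1963 and 892 CPM against 675, 632, 485, 602 and 858 CPM (log2 fold change 1.33 ± 0.26, edgeR adjusted p = 0.00245). Slc11a2, the divalent metal transporter DMT1 that moves iron out of endosomes, was higher in every Spns1 KO library than in any other, at 138, 135, 112 and 97.2 CPM in Spns1 KO, 69.3, 67.2, 82.6, 76.2 and 54.9 CPM in WT and 50.7, 65.7, 67.6 and 51.5 CPM in FeO (log2 fold change 0.79 ± 0.16, edgeR adjusted p = 0.00325 against WT). Slc39a8, which imports zinc and iron, rose against WT (log2 fold change 1.13 ± 0.23, edgeR adjusted p = 0.00306). Steap3 (-1.12) and Steap4 (-1.66), ferric reductases, were lower than in FeO and not called against WT. Tfrc, the transferrin receptor, was at 67.1, 47.5, 44.1 and 96.5 CPM in Spns1 KO and 90.7, 96.3, 112, 126 and 96.8 CPM in WT and missed the threshold (log2 fold change -0.71 ± 0.26, edgeR adjusted p = 0.0539). Of 27 iron-sulfur assembly genes 12 rose and 0 fell (7 with the trend removed), among them Iscu (1.2), the scaffold of the cluster, and Nubpl (0.84), which serves complex I and was higher than in FeO too (0.66). Of 21 heme genes 7 rose (3 with the trend removed, 4 without Spns1 KO 1 or 3, 12 without Spns1 KO 4), such as Urod (0.99) of heme synthesis and the folate and heme carrier Slc46a1 (1.36), and Flvcr1 (-1.18), a choline and heme transporter, fell. Hmox1, heme oxygenase, was at 46.1, 952, 80.2 and 56.8 CPM and was not called, with Spns1 KO 2 far above the others.

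Antioxidant and ferroptosis genes gave 28 of 42 up and 1 down, with a median of 0.98 (0.74 and 24 up with the trend removed). Cat, catalase, was at 1250.0, 1224, 1237 and 909.8 CPM in Spns1 KO, 482, 450.5, 379, 429.7 and 429.8 CPM in WT and 416, 431, 771 and 671 CPM in FeO, and was the only member of the list called up against FeO (log2 fold change 1.41 ± 0.21, edgeR adjusted p = 4.38e-04 against WT and 1.01 against FeO on the log2 scale). With the trend removed 4 members rose and 5 fell against FeO, beside 1 and 3 without that step. Prdx5 (1.56), Txn1 (1.62) and Gstk1 (1.5), enzymes that reduce peroxides or conjugate glutathione, rose with FeO values of 1.23, 1.32 and 0.92. The single decrease was that of Slc7a11, which imports cystine for glutathione synthesis. Slc7a11 was at 1.73, 2.03, 2.64 and 4.46 CPM in Spns1 KO and 9.26, 8.66, 10.96, 12.7 and 5.64 CPM in WT (log2 fold change -1.8 ± 0.32, edgeR adjusted p = 0.00138), and FeO was at 6.23, 4.51, 9.7 and 9.78 CPM (log2 fold change -1.48 ± 0.33, edgeR adjusted p = 0.0103 for Spns1 KO against FeO). Gclc, the rate-limiting enzyme of glutathione synthesis, was not called (log2 fold change -0.25).

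Stress and injury genes were read list by list. Cdkn1a, the cell cycle inhibitor p21, was at 25.3, 38.7, 40.9 and 113 CPM in Spns1 KO and 289, 261, 183, 104 and 234 CPM in WT. Spns1 KO 4 overlapped WT 4, and the other Spns1 KO libraries were below all others (log2 fold change -1.98 ± 0.39, edgeR adjusted p = 0.00300). In the p53 response list 1 of 23 rose, Bax (1.09), and 4 fell, beside a background of 7.60%, with 3 down when the trend was removed. That count was 1 without Spns1 KO 1 or 3, 2 without Spns1 KO 2 or WT 3, and 10 without Spns1 KO 4. Sesn1 (-1.01) and Trp53inp1 (-1.45) were among those that fell, with calls lost in 3 and 7 of 13 fits. Among 31 injury and repair genes 4 rose (2 without Spns1 KO 3 or WT 3) and 1 fell (4 without Spns1 KO 4). The share that rose, 12.9%, was near the background of 14.1%, and the median log2 fold change was 0.08. Against FeO 1 rose and 8 fell. The summed level of that list was 2081 to 2601 CPM in Spns1 KO, 1314 to 1615 CPM in WT and 1323 to 2913 CPM in FeO. Spns1 KO and WT did not overlap in that sum, but Spp1 alone made up a large part of it. Spp1, osteopontin, was at 1094, 1260.3, 1237 and 949 CPM against 548, 503, 395, 385 and 356 CPM (log2 fold change 1.38 ± 0.28, edgeR adjusted p = 0.00302), and Igfbp7 rose too (log2 fold change 1.82 ± 0.36, edgeR adjusted p = 0.00288). Havcr1 (KIM-1), induced in injured proximal tubules, was at 0.537, 0.406, 0.969 and 0.283 CPM in Spns1 KO and 9.39, 7.92, 0.189, 0.706 and 4.09 CPM in WT. Its spread in WT was wide, and it was not called by edgeR (log2 fold change -3.05 ± 1.36, edgeR adjusted p = 0.13) but was called down by DESeq2 (adjusted p = 0.0346). Of 30 integrated and ER stress genes 7 rose, among them the ER chaperone Hsp90b1 (0.85), and 2 fell, Slc7a11 and Dnajb9 (-0.64), another ER chaperone. Of that list 4 and 2 rose without Spns1 KO 1 and 3, and against FeO 0 rose and 10 fell. None of the 22 immediate early genes was called by edgeR, though 2 had an unadjusted p under 0.05. Of the 22, DESeq2 called 2 down, limma-voom called 4 down and edgeR called 11 down without Spns1 KO 4. The clock list gave 1 of 20 down, Rora (log2 fold change -1.002 ± 0.28, edgeR adjusted p = 0.0175, lost in 3 of 13 fits). It had 5 down without Spns1 KO 4 and 0 without Spns1 KO 1, 2 or 3. Its summed levels were 1857 to 3936 CPM in Spns1 KO against 2951 to 3783 CPM in WT, with Spns1 KO 4 the highest. Heat shock genes gave 3 of 16 up, including the mitochondrial chaperones Hspe1 (1.65) and Hspd1 (1.19), and 1 down. Hspd1 shares 50.1% of its words with other genes. Hypoxia genes gave 3 of 23 up and 2 down, and cell cycle genes 0 of 22 up and 2 down, one of them Rrm2 (-0.79), or 5 down with the trend removed. Glucocorticoid genes gave 2 of 20 up, including Hsd11b1 (1.48), which regenerates the active hormone, and 3 down, and the down calls went from 0 without Spns1 KO 1 or 2 to 9 without Spns1 KO 4.

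Interferon-stimulated genes rose in part, with 17 of 35 up, 0 down and a median of 0.77 (14 up and a median of 0.61 with the trend removed). Without Spns1 KO 3 the count was 10. Bst2 (tetherin) was at 4.56, 4.52, 7.51 and 4.41 CPM in Spns1 KO and 1.2, 1.51, 1.1, 0.918 and 1.7 CPM in WT, with no overlap (log2 fold change 2.03 ± 0.32, edgeR adjusted p = 6.23e-04). Gbp3, a guanylate-binding protein, was at 28.8, 39.3, 30.8 and 33.1 CPM against 10.4, 10.7, 11.3, 10.4 and 9.92 CPM (log2 fold change 1.65 ± 0.31, edgeR adjusted p = 0.00189), and FeO 4 was as high, at 38.8 CPM. Ifi27 (1.46) rose as well. The class I antigen genes B2m (1.29) and H2-D1 (1.22), the immunoproteasome chain Psmb10 (1.47) and Ifitm3 (1.5) rose in Spns1 KO and in FeO, where their log2 fold changes were 1.13, 0.96, 1.46 and 1.12. Rsad2 (viperin) was higher than in FeO (log2 fold change 1.38 ± 0.29, edgeR adjusted p = 0.00785), and its call against WT (0.87) was lost in 6 of 13 fits. The letters GAAA, any 2 bases and GAAA again, the core of the interferon-stimulated response element, stood in the promoters of 15 of 28 members, against 3.99% of all genes with a RefSeq promoter. Of those 15, 8 rose, and of the 13 without the letters 7 rose. The Bst2 promoter (GRCm38.p6, chr8:71537423-71537722, minus strand) is shown as that of the member with the largest increase, with the letters in capitals.
Bst2 promoter: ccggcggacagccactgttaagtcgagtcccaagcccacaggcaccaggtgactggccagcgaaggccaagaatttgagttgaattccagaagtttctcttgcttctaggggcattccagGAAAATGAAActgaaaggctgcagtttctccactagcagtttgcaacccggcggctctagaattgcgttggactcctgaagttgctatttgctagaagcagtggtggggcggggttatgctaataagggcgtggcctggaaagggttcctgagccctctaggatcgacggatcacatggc

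Markers of cells outside the proximal tubule moved in the same comparison. Cd74, the invariant chain of antigen-presenting cells, was at 87.9, 119.9, 119.8 and 129 CPM in Spns1 KO and 27.7, 30.1, 22.9, 27.3 and 32.5 CPM in WT (log2 fold change 2.02 ± 0.32, edgeR adjusted p = 7.11e-04), and of the 11 markers of macrophages and antigen-presenting cells 5 rose, among them H2-Ab1 (1.03) and C1qc (1.09), whose calls were not kept with the trend removed. Of 8 B and plasma cell markers 3 rose, namely Igha, Jchain (1.9) and Igkc (2.66), and the call of Igkc was lost in 4 of 13 fits. All 5 erythroid markers rose, but 2 did so with the trend removed, 1 or 2 without Spns1 KO 1, 2 or 3 or WT 3, 4 or 5, and 3 without WT 1. Hbb-bt, a beta-globin that shares 59.4% of its words with other genes, was at 3.79, 10.9, 5.24 and 3.4 CPM against 1.06, 1.11, 0.535, 0.106 and 0.0772 CPM (log2 fold change 3.29 ± 0.72, edgeR adjusted p = 0.00582). Of 7 fibroblast and pericyte markers 3 rose, of 7 endothelial markers 3 (Plvap, 1.8, Egfl7, 1.47, and Emcn, 0.61) and of 6 podocyte markers 2 (among them Nphs1, 1.44, of the slit diaphragm). Of 4 distal convoluted tubule markers 1 rose (Pvalb) and 1 fell (-1.09). In the collecting duct, 1 of 5 principal cell markers rose and 1 fell, and 3 of 5 intercalated cell markers rose and 1 fell. Their sums overlapped, at 218 to 378 CPM in Spns1 KO against 262 to 474 CPM in WT for principal cells and 171 to 243 CPM against 181 to 299 CPM for intercalated cells. Adipocyte, hepatocyte, neutrophil and smooth muscle markers gave 0 calls in edgeR, with 0, 2, 0 and 1 members at an unadjusted p under 0.05 and 0, 2, 0 and 1 called up by DESeq2, and their summed levels overlapped between Spns1 KO and WT. Beside them 9 of 25 matrix genes rose and 1 fell. Col1a1 was at 15.4, 15.6, 15.4 and 11.9 CPM against 4.98, 6.78, 5.23, 5.65 and 3.36 CPM (log2 fold change 1.48 ± 0.31, edgeR adjusted p = 0.00397), Col6a1 (1.63) and Col15a1 (1.5) were alike as was Col6a2 (1.4), and Bgn, biglycan, was at 179, 206, 173 and 273 CPM against 41.9, 44.2, 41.3, 38.4 and 52.5 CPM (log2 fold change 2.25 ± 0.47, edgeR adjusted p = 0.00493). Col1a1 (1.25), Col6a1 (1.04) and Col15a1 (1.32) were higher than in FeO as well. The part of other cells in these differences, and of immune cells in those of the interferon list, was not tested.

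Genes particular to the knockout were taken as those called in Spns1 KO against WT, called in the same direction against FeO, and not so called in FeO against WT. There were 383 such genes up and 193 down. With the trend removed, 304 and 133 of these passed both comparisons again. Between 195 (without Spns1 KO 1) and 528 (without FeO 4) genes were up by this rule when 1 library was left out, and between 87 (without Spns1 KO 1) and 249 (without Spns1 KO 4) were down. The 2 comparisons share the Spns1 KO libraries, so their values are given side by side. Among the 10 strongest that rose, Cltrn (collectrin), a partner of apical amino acid transporters, was at 551, 635, 616 and 418 CPM in Spns1 KO, 173, 163, 128, 133 and 77.3 CPM in WT and 77.1, 77.8, 143 and 247 CPM in FeO. The knockouts were above all 9 other libraries (log2 fold change 2.04 ± 0.32, edgeR adjusted p = 6.10e-04 against WT and log2 fold change 2.03 ± 0.35, edgeR adjusted p = 0.00321 against FeO). Apoe, the apolipoprotein of lipid transport, was at 327, 304, 376 and 170.5 CPM, against 96.8, 98.4, 68.7, 50.1 and 56.3 CPM in WT and 43.3, 61.9, 52.9 and 132 CPM in FeO (log2 fold change 1.99 ± 0.32, edgeR adjusted p = 7.78e-04). Spp2, a secreted phosphoprotein, was at 111, 158, 149.7 and 88.4 CPM against 30.96, 31.7, 25.8, 28.4 and 21.7 CPM in WT (log2 fold change 2.191 ± 0.34, edgeR adjusted p = 6.38e-04). Mdk, midkine, was at 36.3, 29.4, 45.4 and 19.8 CPM, against 11.5, 11.1, 10.2, 10.03 and 3.36 CPM in WT and 1.51, 4.9, 5.96 and 10.04 CPM in FeO (log2 fold change 1.82 ± 0.43, edgeR adjusted p = 0.00849, and 1.24 without a call once the trend was removed). Sox18, an endothelial transcription factor, was at 11.97, 9.68, 8.95 and 1.53 CPM against 1.28, 1.48, 1.39, 1.45 and 2.05 CPM, so that Spns1 KO 4 was at the WT level (log2 fold change 2.4 ± 0.53, edgeR adjusted p = 0.00548). Tcf21 (log2 fold change 1.85), a factor of podocyte and stromal cells, and Aspdh (1.81) rose with them, next to Cacna2d2, Fabp1 and Slc7a12.

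Of the 10 strongest decreases particular to the knockout, Klk1b22, Slc39a2, Ugt1a8, Lipg, Catspere2, Tent5b and Slc7a11 are described above. Esrrb, an orphan nuclear receptor, was the most abundant, at 58.9, 46.6, 53.04 and 76.3 CPM in Spns1 KO, 129, 146, 173, 226 and 208 CPM in WT and 220.0, 160.5, 89.1 and 166 CPM in FeO. Each knockout library was below each of the other 9 (log2 fold change -1.59 ± 0.25, edgeR adjusted p = 6.17e-04 against WT and log2 fold change -1.44 ± 0.26, edgeR adjusted p = 0.00391 against FeO). Fgfbp1, a carrier of fibroblast growth factors, was at 4.74, 5.17, 6.08 and 5.07 CPM against 16.2, 17.96, 17.8, 11.8 and 17.3 CPM in WT, and WT 4 was the lowest of its group (log2 fold change -1.62 ± 0.29, edgeR adjusted p = 0.00124). Peg10, an imprinted gene derived from a retrotransposon, was at 3.2, 2.191, 8.28 and 4.06 CPM against 20.3, 23.1, 7.31, 7.67 and 19.5 CPM, and the groups overlapped in Spns1 KO 3 (log2 fold change -1.82 ± 0.50, edgeR adjusted p = 0.0182, lost in 2 of 13 fits and with the trend removed). Lipg was at 11.5, 7.2, 8.8 and 8.28 CPM in FeO, above every knockout library.

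**Figure D5:**
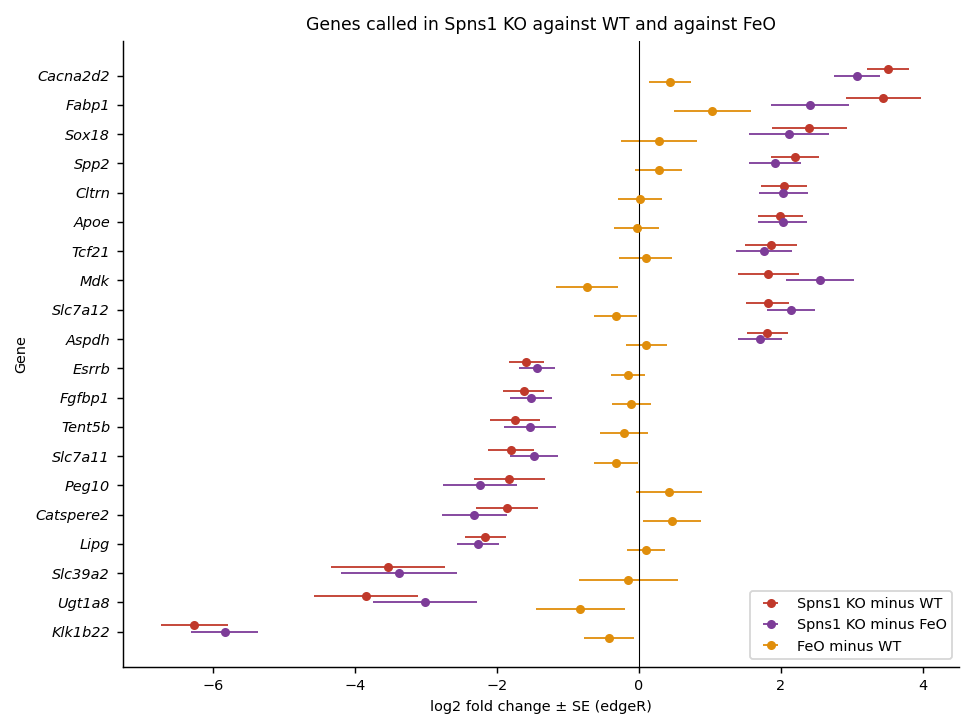
Fitted log2 fold changes with their SE (edgeR) of the 20 genes with the strongest differences particular to the knockout, in Spns1 KO minus WT, Spns1 KO minus FeO and FeO minus WT. The first 2 differences have the same sign for each gene, at -6.26 and -5.83 for Klk1b22 and at 3.5 and 3.07 for Cacna2d2, as the rule that chose the genes requires, and differ more for Fabp1, at 3.44 and 2.41. FeO minus WT lies nearer 0.

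Genes around Spns1 on chromosome 7 were read separately. Of 62 tested genes within 1 Mb of Spns1, 14 rose and 2 fell, or 22.6% up, and with the trend removed 6 rose and 1 fell. Nupr1, a stress-induced chromatin protein, was at 21.5, 25.1, 21.5 and 21.3 CPM in Spns1 KO and 8.28, 7.61, 7.56, 7.63 and 11.3 CPM in WT (log2 fold change 1.4 ± 0.24, edgeR adjusted p = 9.62e-04). Tufm (1.11), the mitochondrial elongation factor Tu, Bola2 (1.38), which chaperones iron-sulfur clusters, Coro1a (1.23), an actin regulator of leukocytes, and Qprt (0.998), of NAD synthesis, rose and kept their calls with the trend removed. Tufm shares 58.2% of its words with other genes, Pagr1a 93.2% and Gm42742 93.0%. Mapk3 (0.76), Ypel3 (0.68), Aldoa (0.85), Tmem219 (0.64), Gm42742 (0.89), Pagr1a (1.25), Maz (0.73), Mylpf (1.23) and Zfp771 (0.62) rose without keeping it. Nfatc2ip (-0.72) and Il4ra (-0.52) were the 2 that fell, with calls lost in 6 and 10 of 13 fits. None of the 16 called neighbours was called in the same direction against FeO, the other group with the 1 floxed allele.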

How the data were processed

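Newly made RNA of kidney was read as paired-end TruSeq libraries. The authors deposited 1 table of estimated counts per gene for 13 libraries. Per the submitters' processing notes it came from bcl2fastq 2.19, kallisto 0.44.0 and GRCm38, whereas the study's methods name Kallisto for read conversion and adaptor trimming, and Trimmomatic, STAR and HTSeq for the later steps to counts. Strand was not given in the sources used here, and the counts of genes that share sequence or overlap depend on the counter, since kallisto divides shared reads and HTSeq sets ambiguous reads aside. The counts cover whole genes.

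Counts were rounded, filtered with filterByExpr, scaled by TMM and fitted by robust quasi-likelihood in edgeR 4.0.16 (R 4.3.3) over all 13 libraries in 3 groups, with Benjamini-Hochberg adjustment over all genes tested. Calls took an adjusted p under 0.05 and a log2 fold change beyond 0.5, the limits of the study. The trend step fitted natural splines (5 degrees of freedom) of each library on transcript length and GC content. The fit was tested on simulated data. DESeq2 1.42.0 and limma 3.58.1 were alternatives, beside other scalings and filters, thinning, a replicate block and leaving out each library. Of 35013 symbols 34222 matched GENCODE M21. Promoters came from RefSeq (GRCm38.p6).

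Genes were named by rule as the 12 largest called changes each way with a mean count of at least 100, no overlap between Spns1 KO and WT and no predicted-gene symbol, the 10 strongest each way particular to the knockout, the 4 called members of a list with the smallest adjusted p, members of lists of up to 14 genes, and called genes within 1 Mb of Spns1. A few genes that these rules name are not reported here. Chosen after their values were seen were Ace, Atg13, Bgn, Cat, Eif2ak3, Eif2ak4, Enpep, Etnk1, Fuca1, Gbp3, Gclc, Havcr1, Hexa, Hmox1, Ifitm3, Lgmn, Ndufa1, Ppara, Ppt1, Psmb10, Rps29, Rsad2, Slc17a5, Slc22a13, Slc22a19, Slc22a2, Slc22a7, Slc22a8, Slc34a3, Steap3, Steap4, Tpp1 and Trp53inp1. The members and lists were chosen with earlier results of these data known.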

Additional observations from a re-analysis of the deposited data

Results flagged for a closer look

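Single libraries stood far from the rest of their group, by the gap to the nearest library divided by the range of log2 CPM (Dixon's 95% limit), in 38 of 399 groups of 4 or 5 libraries tested over the genes named. Chance flags about 1 in 20 groups, and genes of 1 library are not independent.

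Spns1 KO 4 was the library that stood out in 18 of these, 17 times as the lowest of its group, for Sox18 (1.53 CPM), Amn (21.02 CPM), Bax (16.4 CPM), Cat (909.8 CPM), Cideb (28.8 CPM), Col1a1 (11.9 CPM), Etfa (126 CPM), Gm42742 (11.1 CPM), Igfbp7 (364 CPM), Lgmn (223 CPM), Mdh2 (111 CPM), Rps29 (49.7 CPM), Slc22a12 (97.2 CPM), Slc34a3 (24.9 CPM), Suclg2 (123 CPM), Cox6a1 (72.05 CPM) and Gapdh (543 CPM), and as the highest for Ppara (272 CPM). Among the other knockouts the highest value stood out, in Spns1 KO 1 for Ppt1 (73.6 CPM), in Spns1 KO 2 for Klk1 (1936 CPM) and Nupr1 (25.1 CPM) and in Spns1 KO 3 for Bst2 (7.51 CPM).

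WT 5 stood out in 11 groups, as the lowest for Mdk (3.36 CPM), Slc39a2 (2.32 CPM), Folr1 (27.6 CPM), Ppara (131 CPM), Slc22a12 (37.8 CPM), Tpp1 (105 CPM), Col6a2 (1.62 CPM), Hsd11b1 (8.69 CPM) and Slc39a8 (15.8 CPM) and as the highest for Gm42742 (10.1 CPM) and Nupr1 (11.3 CPM). WT 4 stood out for Spns1 (39.2 CPM), Fgfbp1 (11.8 CPM), Dab2 (417 CPM) and Chmp3 (58.003 CPM), of which Dab2 and Chmp3 were the highest of the group and the others the lowest, and WT 3 was the lowest for Fdft1 (37.5 CPM). The WT 4 value of Spns1 lay inside the range of Spns1 KO.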

How the results depend on the processing

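Counts of calls changed more than directions did. Of the genes named, 190 were called in Spns1 KO against WT, and 115 of these kept their direction and call in every alternative that kept all 13 libraries, while the others lost a call in at least 1. The test against a log2 fold change of 0.5 (glmTreat) gave 837 up and 97 down in Spns1 KO against WT, 166 and 198 against FeO, and 60 and 25 particular to the knockout. Fitting only 2 groups at a time gave 464 and 620 against FeO and 224 up particular to the knockout. Testing all genes with a count gave 788 down against WT, and removing the length and GC trend gave 793 down against WT and a called log2 fold change of -0.52 for Spns1. The replicate block, a term for the replicate number, gave 1948 up and 1070 down against WT, and with the trend removed as well 1084 up, 386 down and 101 down particular to the knockout. With both steps Spns1 was at -0.52 and was not called. Deviations from the group mean of Spns1 KO and WT libraries of the same number correlated at -0.30 to -0.07. Of the Spns1 KO libraries, 0 correlated best with the WT library of their own number. For Spns1 KO 1 to 4 and the FeO library of the same number, the correlations were 0.13, -0.04, 0.26 and 0.23. Whether the numbers pair the samples cannot be told from these values.

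Leaving out 1 library gave 1528 to 3006 up and 495 to 2667 down against WT, 569 to 1462 up and 654 to 1628 down against FeO, 195 to 528 up and 87 to 249 down particular to the knockout, and -0.47 to -0.23 for Spns1. The log2 fold change of Hmox1, 1.55 and not called, ranged from -0.67 (without Spns1 KO 2) to 2.38 (without WT 5). The causes were not tested. Depth, at 23068023 counts or more per library, limits genes below about 1 CPM, such as Mylpf, and intervals cover the spread between libraries only.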
